A study of Mus musculus with 8 samples.

Results

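The 39 genes described here encode proteins that carry a cell through mitosis and cytokinesis: the cyclins and kinases of mitotic entry, the spindle assembly checkpoint and anaphase regulators, the chromosomal passengers, spindle motors and chromatin proteins, the kinetochore, the cytokinetic apparatus, and the transcription factor Foxm1 with the proliferation marker Mki67. They were chosen by symbol, from a list of G2/M, spindle, kinetochore and cytokinesis genes. All 39 symbols were among the 22059 genes measured, and all 39 passed the filter on low counts, which left 17081 genes to be tested. The samples were whole livers of FVB mice (FVB/NJ in the Methods of the study), an inbred strain, with no genetic change or treatment named, taken at embryonic day 18 (E18), postnatal day 14 (P14), postnatal day 28 (P28) and in the adult, which the sample titles place at 3 months. Each of the 4 stages had 2 samples, sequenced from poly(A) RNA, and the labels do not say whether they came from separate animals or litters, so p-values measure the spread between these samples only.

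Dividing cells make these transcripts late in the cell cycle, and resting cells keep most of them low. The liver before birth holds 2 dividing populations, the hepatoblasts and young hepatocytes on one side and the blood-forming cells that colonize the fetal liver on the other, whereas most adult hepatocytes are quiescent and polyploid, many of them with more than 1 nucleus after divisions that ended without cytokinesis. In whole liver, fewer cells of a type and less RNA per cell cannot be told apart.

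Many promoters of late cell cycle genes hold a cell cycle genes homology region (CHR, TTTGAA), which the MuvB complexes with B-Myb and FOXM1 or, in resting cells, the DREAM complex recognize, and upstream CCAAT boxes, which NF-Y binds. Promoters were taken from RefSeq on GRCm38.p6, from 250 bases before to 50 bases after the gene start, and 33 of the 39 genes matched an entry. Those without one were Ccna2, Aurkb, Incenp, Tpx2, Kif20a and Foxm1. TTTGAA was searched on both strands and was found in 23 of the 33 windows (69.7%), against 18.1% of all 27025 promoters of the same length. CCAAT, also searched on both strands and overlapping TTTGAA in none of the 33 windows, was found in 24 of 33 windows (72.7%), against 37.9% of all promoters. Both motifs occurred together in 20 of 33 (60.6%, against 7.12%), and 16 of 33 (48.5%, against 12.2%) held 2 or more CCAAT. Neither was found in the windows of Nuf2, Melk, Cit, Mad2l1, Pttg1 and Birc5. A match is a run of letters and not a measured binding site.

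The 120 bases before the start are given here for genes of different roles, 5′ to 3′ on the strand of the gene, with TTTGAA (or its reverse complement TTCAAA) and CCAAT (or ATTGG) in capitals. Cdk1, Cdc20, Espl1 and Kif11 carry both motifs within these 120 bases, Ccnb1 has CCAAT and no TTTGAA in its window, Mki67 has 2 TTTGAA here with its CCAAT farther upstream, and Bub3, the gene that changed least, carries both.
Cdk1, chr10:69352913-69353032, minus strand: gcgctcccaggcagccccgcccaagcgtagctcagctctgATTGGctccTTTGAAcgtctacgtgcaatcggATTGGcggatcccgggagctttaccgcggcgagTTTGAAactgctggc
Cdc20, chr4:118437344-118437463, minus strand: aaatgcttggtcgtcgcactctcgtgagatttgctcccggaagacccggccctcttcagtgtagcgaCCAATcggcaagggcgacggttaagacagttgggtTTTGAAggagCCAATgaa
Espl1, chr15:102296173-102296292, plus strand: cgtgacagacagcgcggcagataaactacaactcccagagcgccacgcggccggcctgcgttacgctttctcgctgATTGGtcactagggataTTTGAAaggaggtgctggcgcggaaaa
Kif11, chr19:37376262-37376381, plus strand: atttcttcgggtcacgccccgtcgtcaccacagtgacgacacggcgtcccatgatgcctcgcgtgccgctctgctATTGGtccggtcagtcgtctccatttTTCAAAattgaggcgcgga
Ccnb1, chr13:100786487-100786606, minus strand: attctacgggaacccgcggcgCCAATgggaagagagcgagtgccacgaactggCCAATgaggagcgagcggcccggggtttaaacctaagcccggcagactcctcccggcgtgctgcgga
Mki67, chr7:135716380-135716499, minus strand: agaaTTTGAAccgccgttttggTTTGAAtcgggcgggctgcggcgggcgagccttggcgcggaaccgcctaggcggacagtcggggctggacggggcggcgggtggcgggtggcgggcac
Bub3, chr7:131560250-131560369, plus strand: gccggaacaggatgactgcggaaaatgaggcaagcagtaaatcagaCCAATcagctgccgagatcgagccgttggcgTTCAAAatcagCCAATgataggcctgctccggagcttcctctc

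In Cdk1 the second TTTGAA began 15 bases before the start, in Cdc20 its only TTTGAA began 18 bases before it and in Espl1 27 bases before it. In other genes the motif lay at or near the start itself, and the 30 bases around it are shown for 7 genes of 3 roles to let the sites be compared.
Ccnb2, chr9:70421533-70421562, minus strand: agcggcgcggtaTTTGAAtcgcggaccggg
Plk1, chr7:122159453-122159482, plus strand: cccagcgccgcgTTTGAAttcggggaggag
Aurka, chr2:172370521-172370550, minus strand: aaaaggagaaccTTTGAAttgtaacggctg
Cenpa, chr5:30666890-30666919, plus strand: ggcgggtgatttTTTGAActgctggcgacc
Cenpf, chr1:189688067-189688096, minus strand: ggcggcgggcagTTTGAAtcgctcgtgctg
Kif23, chr9:61946780-61946809, minus strand: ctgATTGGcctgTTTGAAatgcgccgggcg
Prc1, chr7:80294434-80294463, plus strand: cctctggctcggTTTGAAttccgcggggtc

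Reads counted on genes ranged from 68154675 to 106055723 a sample. The 39 genes had from 2164 to 165948 reads each in an E18 sample and from 1 to 2219 in an adult sample. None was at 0 in any sample, but Ccnb1, Melk, Bub1 and Ttk had 3 reads or fewer in at least 1 adult sample, and 28 genes had under 100 reads in both, so that their adult levels are limited by counting. The hepatocyte marker Alb, the main protein of plasma, stood at 19727 to 65078 RPKM (reads per kilobase of transcript, scaled to 1000000 mapped reads) in the 8 samples, as the label of the tissue implies. The scaling of the samples matters at E18, where the TMM factors were 1.54 and 1.60 against 0.847 to 0.888 at the later stages. With library size alone in place of TMM, the median log2 fold change of all genes tested moved from −0.11 to −0.95 for E18 to adult and from −0.03 to −0.90 for E18 to P14.

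Nearly the whole programme fell from E18 to adult. A gene was called at a Benjamini-Hochberg false discovery rate (FDR) below 0.1 over all genes tested in edgeR's quasi-likelihood test, with a change over 3-fold. By this rule 38 of the 39 genes were lower in adult than at E18 and none was higher, whereas 23.8% of all genes tested were called lower. The exception was Bub3. Their log2 fold changes had a median of −7.95 over the 39 genes (range −10.71 to −1.15), against −0.11 over all genes tested. Standard errors of the 38 called genes, derived from the test statistic, were 0.14 to 0.44. Their edgeR adjusted p-values lay between 1.2e-09 and 1.2e-06. For genes with few adult reads these standard errors understate the counting error. Ccnb1, with 1 read in each adult sample, had a standard error of 0.32, while the exact 95% interval of its ratio ran from 418 to 12463. In adult, 25 of the 39 genes kept less than 1% of their E18 level after TMM scaling, 7 kept 1 to 3% (Ccna2, Aurka, Birc5, Incenp, Ect2, Cit and Foxm1) and 7 kept more (Spc25, Nek2, Mad2l1, Cenpa, Kif20a, Pttg1 and Bub3), with a median of 0.405%.

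The fall was spread over all 3 intervals. From E18 to P14, 36 genes were called lower (15.4% of all genes tested), with a median log2 fold change of −2.65. From P14 to P28, 28 genes were called lower (5.98% of all genes tested), with a median of −1.88. From P28 to adult, 29 genes were called lower (2.24% of all genes tested), with a median of −3.08. No member was called higher in any comparison, whereas 16.8, 13.8, 3.61 and 0.767% of all genes tested were called higher from E18 to adult, E18 to P14, P14 to P28 and P28 to adult. At an unadjusted p below 0.05 in edgeR the count of members higher was also 0, as were the counts of DESeq2 and limma. Leaving out 1 sample moved genes across the 3-fold threshold: from P14 to P28, Ccnb2, Aurka, Espl1, Cenpf, Ndc80, Kif23 and Mki67 lost their call without the second P14 or the second P28 sample, at −1.47 to −1.58, and Incenp, Cenpe and Ect2 gained one without the first sample of P14 or P28. Among the genes not called from P28 to adult, 9 of 10 had an FDR below 0.1 and a change under 3-fold, and the other was Bub3. In 38 of 39 genes both samples of each stage lay below both samples of the stage before in TMM CPM (counts per 1000000 after TMM scaling), against 8.82% of all genes tested, and only Bub3, among these 39, broke the order, between P28 and adult. For single comparisons all 39 members lay lower without overlap from E18 to adult, E18 to P14 and P14 to P28, and 38 from P28 to adult, against 47.5, 44.3, 40.4 and 31.0% of all genes tested. The heat map of levels relative to E18 shows these steps for each gene and sample.

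**Figure D1:**
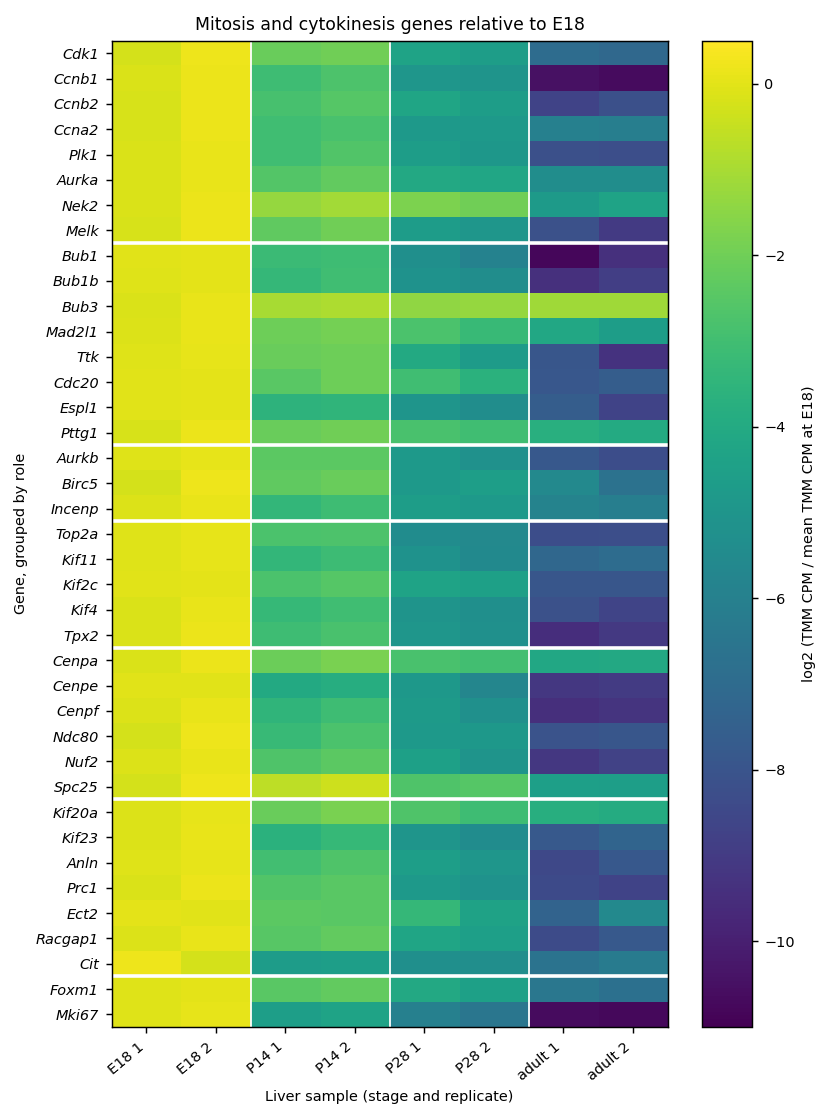
Level of each of the 39 genes (rows, grouped by role) in each of the 8 samples (columns), as log2 of the TMM CPM over the E18 mean of that gene. Colours darken from E18 to adult in 38 of 39 rows, and Bub3 stays light, at 45.1% of E18 in adult after TMM scaling.

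The kinases and cyclins of mitotic entry comprised 8 genes, all called lower from E18 to adult, 7 from E18 to P14, 7 from P14 to P28 and 6 from P28 to adult. Cdk1, the kinase that drives entry into mitosis, gave 75.6 and 98.7 RPKM at E18, then 10.9 and 12.1 at P14, then 2.33 and 1.98 at P28 and finally 0.388 and 0.350 in adult. Its samples did not overlap between any stages, and its log2 fold change from E18 to adult was −7.01 ± 0.20 (SE, n = 2 per stage, edgeR adjusted p = 5.9e-09), in steps of −2.06, −2.38 and −2.57.

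Ccna2, the cyclin A2 that acts in S phase and in G2, had the highest mean RPKM of the 39 at E18, though its samples overlapped those of Mki67. Ccna2 gave 179 and 225 RPKM at E18, then 13.7 and 15.8 at P14, then 3.97 and 3.88 at P28 and finally 1.70 and 1.65 in adult. The last step, −1.25 ± 0.14 (edgeR adjusted p = 8.8e-04), passed the FDR and not the 3-fold threshold. Of the annotated exon bases of Ccna2, 12.5% overlap Exosc9 on the opposite strand (GENCODE M21), and since the sources used here do not say whether counting used strand, reads of the 2 genes may be mixed there.

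The B cyclins are the partners of Cdk1 in mitosis. Ccnb1 had 3037 and 3290 reads at E18, then 265 and 334 at P14, then 62 and 53 at P28 and finally 1 read in each adult sample. The ratio of E18 to adult was 1509 after scaling, with an exact 95% interval of 418 to 12463 that covers counting error only, and the ratio of P28 to adult was 47.3 (12.8 to 395). Ccnb2, with 95.6 and 120 RPKM at E18, 8.28 and 10.2 at P14 and 3.07 and 2.44 at P28, kept 0.141 and 0.206 in adult. Ccnb1 and Ccnb2 each have an annotated pseudogene, so reads could be shared with it.

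Plk1 and Aurka, kinases of the spindle poles and centrosomes, began at different levels and parted in adult. Plk1 gave 27.8 and 33.2 RPKM at E18, then 2.07 and 2.72 at P14, then 0.670 and 0.557 at P28 and finally 0.0553 and 0.0555 in adult. Aurka gave 75.7 and 91.5, then 7.76 and 9.47, then 2.65 and 2.46, and 1.10 and 1.12 RPKM in adult. From P28 to adult Plk1 fell by 3.48 on the log2 scale (SE 0.30, edgeR adjusted p = 2.2e-04), and Aurka showed −1.22 ± 0.15, under the 3-fold threshold.

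Nek2, a centrosomal kinase, and Melk, a kinase with peak expression in mitosis, ended at different levels in adult. Nek2 gave 23.9 and 29.1 RPKM at E18, then 5.95 and 6.73 at P14, then 4.2 and 3.67 at P28 and finally 0.534 and 0.738 in adult. Its first 2 steps were −1.21 and −0.65, both under 3-fold, and its last step was −2.65 ± 0.18 (edgeR adjusted p = 6.4e-05). With library size alone its first step became −2.07 and was called. Melk gave 10.7 and 13.4, then 1.36 and 1.68, then 0.255 and 0.214, and 0.0232 and 0.0126 RPKM in adult, and was called lower at every step.

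**Figure D2:**
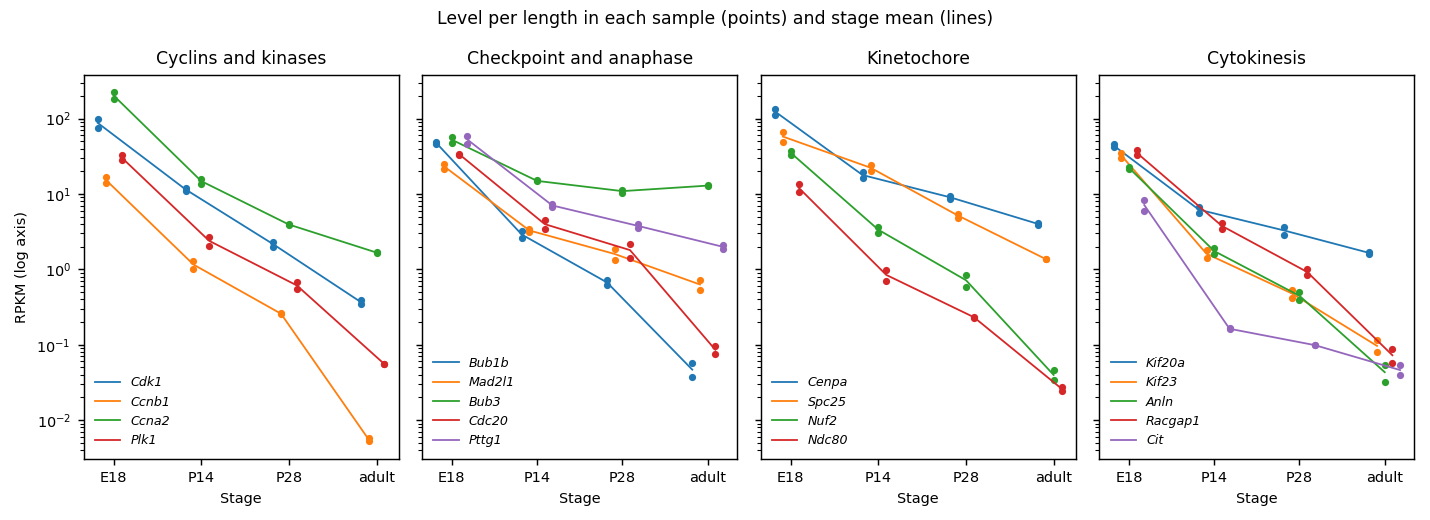
RPKM (log axis) in each sample (points) and the stage mean (lines) of 18 members in 4 roles, at E18, P14, P28 and adult. Bub3 runs nearly level after P14, at 10.4 to 15.1 RPKM, while Ccnb1 ends at 0.00585 and 0.00528 RPKM.

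The spindle assembly checkpoint and anaphase regulators comprised 8 genes, of which 7 were called lower from E18 to adult, 7 from E18 to P14, 4 from P14 to P28 and 5 from P28 to adult. Bub1 and Bub1b, the checkpoint kinase and its paralog BubR1, began at 20.3 and 20.6 RPKM and at 46.1 and 48.2 RPKM. At P14 they stood at 1.27 and 1.35 and at 2.60 and 3.19, and at P28 at 0.286 and 0.188 and at 0.722 and 0.620. In adult Bub1 was down to 0.00624 and 0.0169 RPKM, that is 2 and 6 reads, and Bub1b to 0.0369 and 0.0566. Both were called lower in every interval, and over the whole course by −9.85 ± 0.29 and −9.08 ± 0.21 (edgeR adjusted p = 6.7e-09 and 2.7e-09). With so few adult reads of Bub1, its standard error understates the counting error.

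Bub3, which docks Bub1 and BubR1 on the kinetochore, took another course. It gave 48.0 and 56.9 RPKM at E18, then 14.7 and 15.1 at P14, then 10.4 and 11.3 at P28 and finally 12.7 and 13.2 in adult. Its log2 fold change from E18 to adult, −1.15 ± 0.11 (edgeR adjusted p = 7.3e-06), passed the FDR and not the 3-fold threshold, and its last step was 0.23 ± 0.11 (edgeR adjusted p = 0.18). With library size alone the change from E18 to adult was −1.99 and that from E18 to P14 −1.83, and both were then called. The ratio of Bub3 to Bub1b, in RPKM, was 1.04 and 1.18 at E18, then 5.66 and 4.72 at P14, then 14.5 and 18.2 at P28 and finally 343 and 233 in adult, so the 2 partners stood near parity only at E18 among these stages.

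Mad2l1, the inhibitor that holds Cdc20 until all kinetochores are attached, and Ttk, the kinase upstream of it, separated in adult. Mad2l1 gave 21.7 and 24.8 RPKM at E18, then 3.17 and 3.38 at P14, then 1.85 and 1.35 at P28 and finally 0.722 and 0.539 in adult. Ttk gave 13.1 and 13.9, then 1.73 and 1.82, then 0.445 and 0.286, and 0.0304 and 0.0118 RPKM in adult. After TMM scaling, Mad2l1 kept 4.96% of its E18 level in adult and Ttk 0.285%. From P28 to adult Mad2l1 showed −1.37 ± 0.21, under 3-fold, but was called without the second P28 sample, at −1.59, or without the first adult sample, at −1.62, and Ttk −4.15 ± 0.39 (edgeR adjusted p = 3.1e-04).

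Cdc20, the mitotic activator of the anaphase-promoting complex, gave 33.3 and 33.6 RPKM at E18, then 3.44 and 4.52 at P14, then 2.16 and 1.43 at P28 and finally 0.0759 and 0.0959 in adult. Its step from P14 to P28, −1.11 ± 0.20, was under 3-fold and its step from P28 to adult was −4.40 ± 0.32 (edgeR adjusted p = 9.1e-05). The difference between these 2 steps was 3.29 ± 0.44 on the log2 scale (edgeR adjusted p = 0.0024), the second largest among the 39 after that of Ccnb1 (3.32 ± 0.65, adjusted p = 0.012).

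Separase (Espl1) cuts cohesin at anaphase, and securin (Pttg1) inhibits it. Espl1 gave 20.3 RPKM in both E18 samples, then 0.941 and 0.986 at P14, then 0.338 and 0.269 at P28 and finally 0.0551 and 0.0277 in adult. Pttg1 gave 46.3 and 59.5, then 6.69 and 7.36, then 4.02 and 3.55, and 2.13 and 1.84 RPKM in adult. The log2 fold change from E18 to adult was −8.08 ± 0.24 for the protease (edgeR adjusted p = 6.2e-09), and the ratio of Pttg1 to Espl1 went from 2.28 and 2.93 at E18 to 38.7 and 66.6 in adult. Over the whole course Pttg1 was, with Kif20a, second to Bub3 in the smallness of its change, at −3.86 ± 0.17 (edgeR adjusted p = 5.5e-08).

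The chromosomal passengers Aurkb, Birc5 (survivin) and Incenp form a complex that corrects kinetochore attachments and later acts at the midzone, and all 3 were called lower from E18 to adult and from E18 to P14. Aurkb, the kinase, gave 60.7 and 64.4 RPKM at E18, then 6.58 and 6.62 at P14, then 1.20 and 0.940 at P28 and finally 0.145 and 0.112 in adult. Birc5 gave 34.7 and 45.0, then 4.45 and 4.97, then 0.787 and 0.914, and 0.452 and 0.215 RPKM in adult. Incenp, the scaffold, gave 68.8 and 77.7, then 3.90 and 4.74, then 1.61 and 1.41, and 0.678 and 0.593 RPKM in adult. From P28 to adult only Aurkb of these 3 was called, with −3.08 ± 0.20, against −1.38 ± 0.29 for Birc5 and −1.27 ± 0.16 for Incenp. The 2 adult samples of Birc5 differed about 2-fold, and without the first of them the step was −2.02 and was called.

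The chromatin protein Top2a and the spindle proteins Kif11, Kif2c, Kif4 and Tpx2 were the only role of more than 2 genes in which every member was called lower in every interval. Top2a, the topoisomerase that untangles chromosomes, gave 123 and 132 RPKM at E18, then 10.5 and 10.8 at P14, then 1.61 and 1.43 at P28 and finally 0.221 and 0.237 in adult. Its 3 steps were −2.73, −2.76 and −2.76, and the differences between successive steps were 0.03 ± 0.17 and −0.01 ± 0.22.

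Kif11, the motor that separates the spindle poles, gave 31.9 and 34.9 RPKM at E18, then 1.77 and 2.11 at P14, then 0.509 and 0.391 at P28 and finally 0.126 and 0.150 in adult. Kif2c, which depolymerizes microtubule ends, gave 15.1 and 15.4, then 1.24 and 1.45, then 0.401 and 0.374, and 0.0335 and 0.0346 RPKM in adult. The steps of Kif11 were −3.25, −2.07 and −1.72, and those of Kif2c −2.65, −1.76 and −3.51. For Kif11 the last step lost its call without the first P28 sample, at −1.50.

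Kif4, a chromosome-bound kinesin, gave 22.1 and 26.0 RPKM at E18, then 1.35 and 1.63 at P14, then 0.388 and 0.341 at P28 and finally 0.0460 and 0.0337 in adult. Its annotated exons overlap Pdzd11 on the opposite strand over 15.1% of their length, and it has a pseudogene. Tpx2, which activates Aurka on the spindle, gave 44.4 and 54.0, then 3.23 and 3.94, then 0.855 and 0.713, and 0.0372 and 0.0504 RPKM in adult. The ratio of Aurka to Tpx2 went from 1.70 and 1.69 at E18 to 29.6 and 22.3 in adult, with 2.40 and 2.41 at P14 and 3.10 and 3.46 at P28. This and the other ratios were not tested.

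The kinetochore genes comprised Cenpa, Cenpe, Cenpf, Ndc80, Nuf2 and Spc25, all 6 called lower from E18 to adult. Cenpa, the histone variant that marks the centromere, gave 112 and 135 RPKM at E18, then 16.3 and 19.3 at P14, then 9.52 and 8.51 at P28 and finally 3.89 and 4.12 in adult. Cenpe, a kinetochore motor, gave 14.8 and 14.4, then 0.503 and 0.553, then 0.269 and 0.151, and 0.0139 and 0.0156 RPKM in adult. Cenpf, a protein of the outer kinetochore, gave 19.3 and 22.0, then 1.04 and 1.33, then 0.415 and 0.305, and 0.0158 and 0.0187 RPKM in adult. After TMM scaling, Cenpa kept 5.93% of its E18 level in adult while Cenpe kept 0.188% and Cenpf 0.154%.

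The Ndc80 complex, which binds spindle microtubules, has the subunits Ndc80, Nuf2, Spc24 and Spc25, and their levels did not stay in proportion. Ndc80 gave 10.5 and 13.7 RPKM at E18, then 0.705 and 0.983 at P14, then 0.235 and 0.228 at P28 and finally 0.0246 and 0.0278 in adult. Nuf2 gave 33.1 and 37.1, then 3.04 and 3.66, then 0.849 and 0.584, and 0.0338 and 0.0457 RPKM in adult. Spc25 gave 49.3 and 66.1, then 20.2 and 24.4, then 4.82 and 5.50, and 1.36 and 1.38 RPKM in adult.

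Spc25 was the one member whose first step was smaller than its second by the test of the difference, at −0.52 ± 0.16 from E18 to P14 and −2.08 ± 0.16 from P14 to P28 (difference 1.56 ± 0.27, edgeR adjusted p = 0.0011). At P14 it was the most abundant of the 39 by RPKM. The ratio of Spc25 to Nuf2 was 1.49 and 1.78 at E18, then 6.65 and 6.67 at P14, then 5.68 and 9.41 at P28 and finally 40.3 and 30.1 in adult. Spc24, its direct partner and not one of the 39, gave 38.7 and 47.4 RPKM at E18 and 4.87 and 3.41 in adult, and the ratio of Spc25 to Spc24 was 1.27 and 1.39 at E18, then 2.05 and 2.54 at P14, then 1.03 and 1.30 at P28 and finally 0.280 and 0.404 in adult. The 2 Spc subunits therefore kept more of their E18 level than Ndc80 and Nuf2 in these samples.

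Cytokinesis genes comprised 7 members, all called lower from E18 to adult and from E18 to P14, 4 from P14 to P28 and 5 from P28 to adult. Kif23 and Racgap1 together form centralspindlin, which bundles the midzone. Kif23 gave 30.2 and 34.8 RPKM at E18, then 1.42 and 1.80 at P14, then 0.536 and 0.423 at P28 and finally 0.0791 and 0.114 in adult. Racgap1 gave 32.8 and 37.8, then 3.48 and 4.06, then 1.00 and 0.844, and 0.0575 and 0.0878 RPKM in adult. Near parity at E18 (ratio of Kif23 to Racgap1 0.921 in both samples) gave way to 0.408 and 0.442 at P14, then to 0.534 and 0.501 at P28 and finally to 1.38 and 1.30 in adult. The first step was −3.48 ± 0.17 in Kif23 and −2.37 ± 0.15 in Racgap1, and the last was −2.32 ± 0.25 and −3.67 ± 0.23.

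Prc1, the microtubule crosslinker of the midzone, gave 43.8 and 53.8 RPKM at E18, then 4.32 and 4.89 at P14, then 0.951 and 0.763 at P28 and finally 0.0765 and 0.0650 in adult. Its exons overlap Rccd1 on the opposite strand over 11.1% of their length. Anln (anillin), which links the contractile ring to the membrane, gave 21.6 and 22.8, then 1.58 and 1.91, then 0.499 and 0.393, and 0.0325 and 0.0541 RPKM in adult. Both were called lower in every interval.

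Ect2, the activator of RhoA at the division plane, gave 20.0 and 19.1 RPKM at E18, then 2.04 and 1.97 at P14, then 1.01 and 0.517 at P28 and finally 0.0658 and 0.226 in adult. Its duplicates differed about 2-fold at P28 and by more in adult, with 20 and 76 reads in the adult samples, and it had the largest standard errors of the 39 in 3 of the 4 comparisons. Its change from E18 to adult was −6.17 ± 0.44 (edgeR adjusted p = 1.2e-06).

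Cit (citron kinase), which acts late in abscission, was the lowest of the 39 at E18, P14 and P28. It gave 8.32 and 5.94 RPKM at E18, then 0.161 and 0.165 at P14, then 0.0992 and 0.0986 at P28 and finally 0.0393 and 0.0532 in adult. It had the largest first step of the 39, −4.59 ± 0.19 (edgeR adjusted p = 6.7e-08), followed by −0.68 and −1.11, both under 3-fold. The first step made up 71.9% of its whole log2 change, and the test of the first against the second step gave −3.91 ± 0.34 (edgeR adjusted p = 2.0e-05).

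Kif20a, a motor of the midzone, gave 41.9 and 46.0 RPKM at E18, then 5.62 and 6.76 at P14, then 3.69 and 2.88 at P28 and finally 1.68 and 1.62 in adult. After TMM scaling it kept 6.88% of its E18 level in adult, and its 2 later steps were −0.88 and −1.01, both under 3-fold. Its annotated exons overlap Cdc23, a subunit of the anaphase-promoting complex, on the opposite strand over 29.3% of their length, and Cdc23 stood at 4.76 and 4.88 RPKM in adult. The part of that overlap in the level of Kif20a was not tested. Smaller overlaps, of 1.35 to 7.09% of exon bases, are annotated for Plk1, Nek2, Cdc20, Foxm1 and Top2a.

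Foxm1, the transcription factor of late cell cycle genes, and Mki67, the antigen Ki-67 that coats mitotic chromosomes, were called lower in every interval. Foxm1 gave 22.9 and 23.8 RPKM at E18, then 2.36 and 2.68 at P14, then 0.743 and 0.570 at P28 and finally 0.143 and 0.120 in adult. Mki67 gave 176 and 192, then 4.32 and 5.03, then 1.52 and 1.11, and 0.0618 and 0.0582 RPKM in adult. Mki67 had 165948 and 163369 reads at E18 and 46 and 48 in adult, and its log2 fold change of −10.71 ± 0.25 (edgeR adjusted p = 2.7e-09) was the largest of the 39, to 0.0598% of E18 after TMM scaling. Foxm1 fell by 6.60 (SE 0.19, adjusted p = 5.7e-09).

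The timing of the fall differed between genes. Taking each gene's log2 change from E18 to adult as the whole, a median of 35.0% (range 11.4 to 83.7%) fell in the first interval, 23.4% (10.7 to 45.9%) in the second and 39.5% (−20.2 to 58.7%) in the third. By point estimates, the largest step was the first in 15 genes, the second in 3 (Birc5, Top2a and Spc25) and the third in 21. The first step was not tested against the third. Some of these steps were nearly equal, as in Top2a (−2.73, −2.76 and −2.76) and in Foxm1 (−2.35 in the first and −2.34 in the third). The order of the first and the third interval also rests on the scaling of E18 and on the measure used. With library size alone, the median shares were 41.1, 21.5 and 35.3%, and the largest step was the first in 26 genes and the third in 12. With limma on log2(RPKM + 0.1), they were 50.3, 23.6 and 25.5%, and the largest step was the first in 36 genes and the third in 2. The median step from P28 to adult, which does not involve E18, was −1.76 with limma and −3.05 with library size alone. The intervals are of unequal length, and the steps are therefore not rates.

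By the test of the difference itself, the step from E18 to P14 was more negative than that from P14 to P28 in 26 genes (26.1% of all genes tested) and less negative in 1, Spc25 (32.5% of all genes tested). The differences ranged up to those of Cit (−3.91), Cenpe (−2.65 ± 0.37) and Mki67 (−2.64 ± 0.29). Without the first P14 sample 15 genes in all were called in this test, in place of 27, and 37 with library size alone or with limma. The step from P28 to adult was more negative than that from P14 to P28 in 19 genes (13.2% of all genes tested), among them Ccnb1, Cdc20, Cenpf (2.72 ± 0.39) and Mki67 (2.67 ± 0.30). The reverse held for Bub3 alone (8.94% of all genes tested), by −0.65 ± 0.18 (edgeR adjusted p = 0.047). The second test called 20 genes in all, 11 without the first P28 sample, and 6 with limma on log2(RPKM + 0.1), a scale on which low adult levels are compressed.

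**Figure D3:**
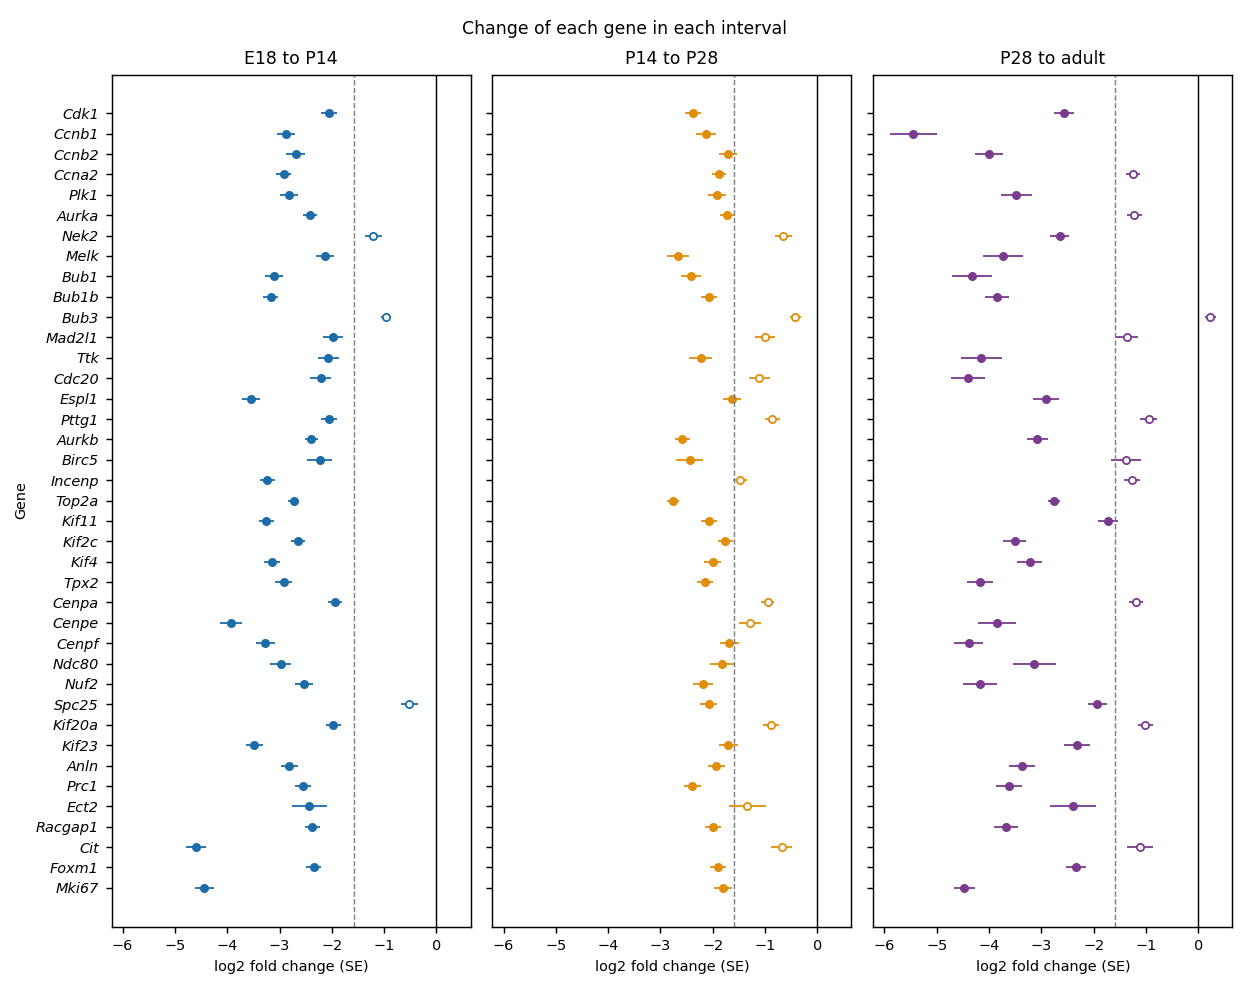
Log2 fold change of each of the 39 genes in each interval, with bars of 1 standard error; filled points are called (FDR below 0.1 and over 3-fold, the dashed line), open points are not. The last interval spreads the widest, from −5.45 (Ccnb1) to 0.23 (Bub3). The bars understate the counting error of genes with few adult reads.

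As the levels fell, the order of the genes changed. At E18 the highest by RPKM were Ccna2, Mki67 and Top2a, with means of 202, 184 and 128 RPKM, and the median of the 39 was 33.4. In adult the highest were Bub3, Cenpa and Pttg1, with means of 12.9, 4.01 and 1.99 RPKM, and the median was 0.0859. All 39 stood at 1 RPKM or more at E18, but only 35 at P14, then 16 at P28 and 7 in adult, and 21 were below 0.1 RPKM in adult. Neighbours in these orders often could not be separated: of 38 neighbouring pairs, the ranges of the 2 samples overlapped in 29 at E18, in 26 at P14, in 31 at P28 and in 25 in adult.

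Bub3 made up 2.71% ± 0.0365 (SD, n = 2) of the summed RPKM of the 39 genes at E18 and 44.3% ± 0.909 in adult. Mki67 went from 9.53% ± 0.434 to 0.206% ± 0.0106, and Cenpa from 6.38% ± 0.156 to 13.7% ± 0.438. What remained of the summed level in adult was therefore mostly a few genes, with Bub3, Cenpa, Pttg1, Ccna2 and Kif20a at its head.

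The summed RPKM of the 39 genes was 1789 and 2079 at E18, then 186 and 213 at P14, then 71.2 and 63.8 at P28 and finally 29.0 and 29.4 in adult. The stages did not overlap, and P14, P28 and adult stood at 10.3, 3.49 and 1.51% of E18. The fold from adult to E18 was 66.3 in RPKM and 36.2 after TMM scaling.

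Levels of blood cell markers moved over the same time. Summed RPKM of the 11 erythroid markers measured was 9973 and 12589 at E18, then 60.5 and 52.1 at P14, then 50.3 and 49.3 at P28 and finally 41.3 and 45.9 in adult. All 11 were called lower from E18 to P14, 6 from P14 to P28 and 1 from P28 to adult. In summed RPKM the erythroid markers had thus reached 0.499% of E18 by P14 and 0.387% in adult, where the 39 genes stood at 10.3 and 1.51%. The sum does not follow each marker. From P14 to P28 the median log2 fold change was −2.55 for the 11 erythroid markers (range −4.95 to 0.71) and −1.88 for the 39 genes. From P28 to adult the medians were −0.65 and −3.08.

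The 7 markers of neutrophil precursors summed to 1909 and 2372 RPKM at E18, then 223 and 239 at P14, then 6.42 and 4.31 at P28 and finally 1.81 and 4.83 in adult. All 7 were called lower in each of the first 2 intervals and 3 in the last, and Camp and Ngp, which encode granule proteins, were at 0 reads in both adult samples. Between P28 and adult, where 29 of the 39 genes were called lower, the 5 markers of haematopoietic progenitors gave 0 calls in edgeR (1 lower at an unadjusted p below 0.05, and 0 calls in DESeq2 and limma), with sums of 3.33 and 2.94 RPKM at P28 and 2.16 and 2.55 in adult. Megakaryocyte markers gave 4 of 4 lower from E18 to P14 and 0 of 4 from P28 to adult (3 lower at an unadjusted p below 0.05, and 0 calls in DESeq2 and limma), with sums of 193 and 253 RPKM at E18 and 2.29 and 2.28 in adult. The part of these blood lineages in the fall of the mitosis genes was not tested.

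Markers of resident liver cells were counted in the same way, and those calls that involve E18 varied with the scaling. The 10 hepatocyte markers summed to 44268 and 42383 RPKM at E18, then 117487 and 117336 at P14, then 81209 and 77891 at P28 and finally 53590 and 45742 in adult, with 10 called higher from E18 to P14 (4 with limma or library size alone) and 0 called in the 2 later intervals by edgeR, DESeq2 or limma. At an unadjusted p below 0.05 these later intervals gave 4 lower and 3 higher from P14 to P28 and 2 lower and 2 higher from P28 to adult. The 4 endothelial markers gave 0 calls in edgeR and DESeq2 in each comparison. At an unadjusted p below 0.05 in edgeR, all 4 were higher from E18 to P14 and lower in each of the 2 later intervals. From E18 to adult all 4 were lower at that threshold, and limma called 3 of them. Stellate cell markers gave 1 higher of 4 from E18 to adult, where limma called 2 lower and none higher. Macrophage markers gave 2 lower and 1 higher of 5 (4 lower and 1 higher with limma), lymphocyte markers 1 lower and 2 higher of 6 (1 lower and none higher with limma), and bile duct markers 3 lower of 4 from E18 to adult, with bile duct sums of 36.1 and 24.4 RPKM at E18 and 2.67 and 3.46 in adult.

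**Figure D4:**
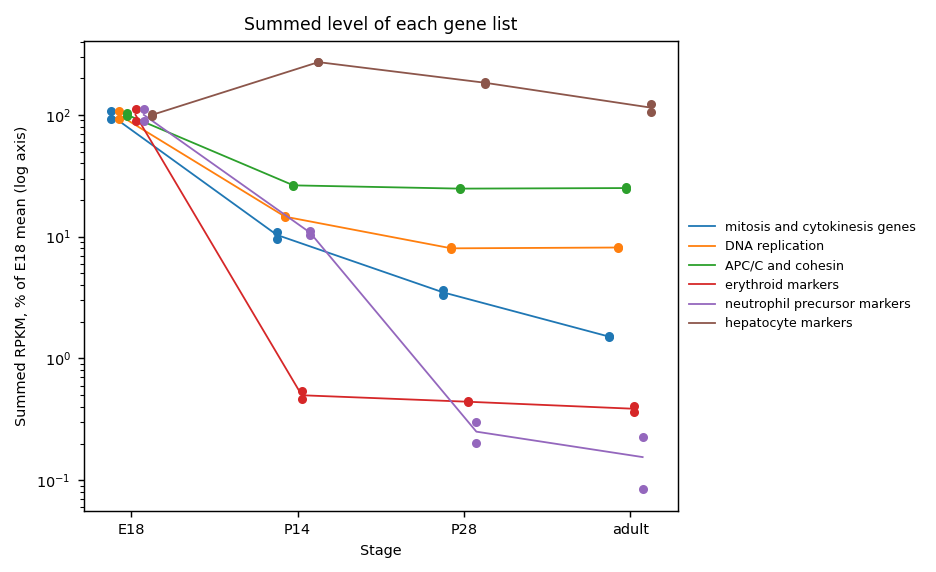
Summed RPKM of each gene list as a percentage of its E18 mean (log axis), with each sample as a point and the stage mean as a line. The 39 genes step down to 10.3, 3.49 and 1.51%, erythroid markers drop to 0.499% by P14, and the anaphase-promoting complex (APC/C) with cohesin stays near 25% from P14. These sums are not TMM-scaled, and RPKM shows larger falls from E18 than TMM does. With TMM the APC/C and cohesin genes had a median log2 fold change of −0.78 from E18 to adult.

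Other genes of cell division were counted for comparison. Of 77 further mitosis genes measured, 75 were called lower from E18 to adult, 65 from E18 to P14, 31 from P14 to P28 and 47 from P28 to adult, and 0 were called higher by edgeR, DESeq2 or limma. Under the 3-fold threshold, Cenpm rose from E18 to P14 (log2 fold change 1.27, edgeR adjusted p = 7.0e-05). Mis12 rose likewise from P28 to adult (0.83, edgeR adjusted p = 0.0020). Kif18b, a kinesin, had the largest change of that list, at −10.44 ± 0.29, while Mis12 (−0.14 ± 0.11) and Zwint (−1.01 ± 0.11), both of the kinetochore, were not called. Mis12 gave 26.7 and 29.8 RPKM at E18 and 13.4 and 14.7 in adult.

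The 22 genes of the anaphase-promoting complex and of cohesin, which several of the 39 activate, restrain or cut, showed 5 lower from E18 to adult and 3 from E18 to P14. These were 22.7 and 13.6% of the list, against 23.8 and 15.4% of all genes tested. With library size alone 11 and 13 of the 22 were called lower, against 36.1 and 29.8% of all genes tested. With TMM the 2 later intervals gave 0 calls, and the median log2 fold change from E18 to adult was −0.78. DESeq2 and limma also gave 0 calls in the later intervals. There 6 and 3 genes were lower, and 4 and 2 higher, at an unadjusted p below 0.05 in edgeR. Fzr1 (Cdh1), the activator of the complex in G1, had the largest change of them, at −2.93 ± 0.14, from 88.9 and 117 RPKM at E18 to 7.25 and 7.59 in adult. Subunits such as Anapc2 (−0.09 ± 0.08) and Anapc13 (0.79 ± 0.13) were not called. The windows of 17 of these 22 genes held TTTGAA in 2 (11.8%), CCAAT in 8 (47.1%) and both in 1 (5.88%).

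Of 45 DNA replication genes, 39 were called lower from E18 to adult, 30 from E18 to P14, 15 from P14 to P28 and 11 from P28 to adult. Uhrf1, which directs maintenance DNA methylation, had the largest change, at −9.05 ± 0.27. Mcm10, a replication initiation factor, was the one gene of the list called higher from E18 to adult, and went from 29.5 and 30.6 RPKM at E18 through 6.38 and 6.58 at P14 and 31.9 and 37.0 at P28 to 67.4 and 77.9 in adult (2.14 ± 0.11, edgeR adjusted p = 1.1e-07). With library size alone its change from E18 to adult was 1.30 and with limma 1.27, under 3-fold, so that this call depends on the scaling of E18. Median-ratio scaling and DESeq2, like TMM, called 1 gene of the list higher from E18 to adult. The step of Mcm10 from P14 to P28 was 2.44 with TMM, 2.43 with library size alone and 2.39 with limma, and was called in each.

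**Figure D5:**
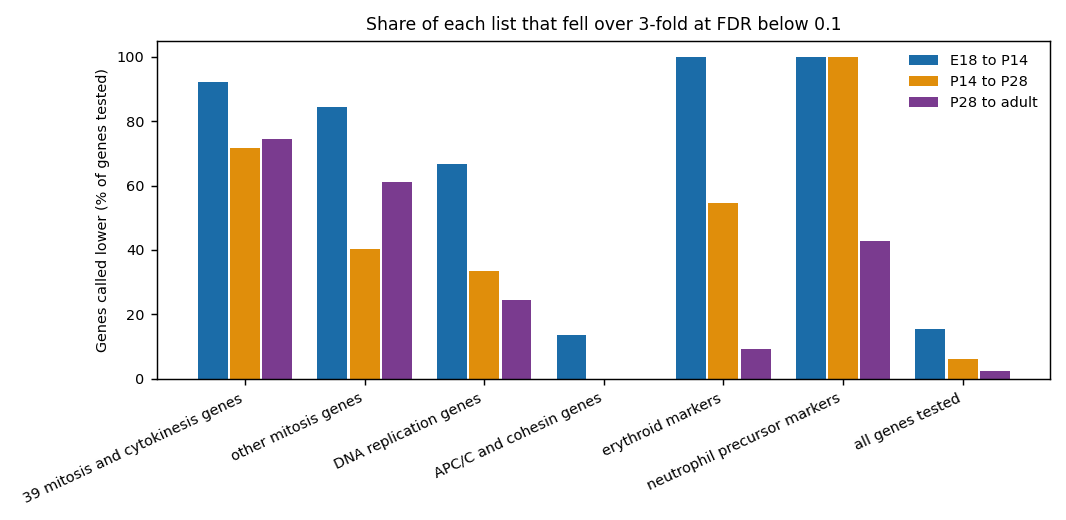
Percentage of the genes tested in each list that were called lower in each interval; the last group of bars is all 17081 genes tested. In the last interval 74.4% of the 39 genes were called lower, against 61.0% of other mitosis genes and 42.9% of neutrophil precursor markers. The share was 24.4% for DNA replication genes, 9.09% for erythroid markers, 0% for APC/C and cohesin genes and 2.24% for all genes tested.

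The profile of each gene over the 8 samples was compared with the median profile of the 39. The measure was the root mean square difference of log2 TMM CPM, with 0.5 reads added to each count, after centring each gene on its own mean. The members, which make up that median, lay from 0.128 (Kif2c) to 2.45 (Bub3) from it. The 5 nearest genes outside the list were Cdca5 (0.189), Sgol2 (0.215), Ankle1 (0.220), Ercc6l (0.236) and Adcy2 (0.241). Cdca5 (sororin) and Sgol2 (shugoshin), which guard cohesion, had 4304 and 4505 and 3220 and 3342 reads at E18, and 8 and 13 and 7 and 10 in adult. Adcy2, an adenylate cyclase, had only 251 and 194 reads at E18 and 0 in both adult samples, where its values in this measure rest on the added 0.5 reads.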

How the data were processed

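Poly(A)-selected RNA of whole liver was sequenced as 100 bp read pairs. RNA was isolated with Trizol according to the labels and with the RNeasy kit according to the Methods of the study. The authors deposited, for each sample, the raw read count of 22059 genes and the RPKM they computed from it. Per the submitters' processing notes the build is mm9, and the aligner and the strandedness of counting are not given in the sources used here. Gene coordinates are not printed, because the annotation used for overlaps (GENCODE M21) and the promoters (RefSeq) are on GRCm38.

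The deposited counts were filtered (filterByExpr), scaled by TMM and fitted in edgeR (version 4.0.16) with 1 coefficient per stage over all 8 samples, and stages and the differences between steps were compared by the quasi-likelihood test. Standard errors were obtained by dividing the absolute log2 fold change by the root of F, and they understate the counting error of genes with few reads. RPKM values were used for levels per length. Ratios, sums and shares carry no test, and with 2 samples a stage an exact permutation test cannot go below p = 0.33.

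The 39 genes, the other lists and the markers were chosen with earlier results of these data known. Every member is accounted for; values in each sample are given for the representatives of each role, the 3 largest and 3 smallest changes from E18 to adult, members called from P28 to adult, and the 5 genes nearest in profile; of other lists, the largest and smallest change and any gene that moved against its list. Some values that this rule names are not reported here.

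Same-numbered samples did not deviate together (r from −0.107 to 0.084 over 6 pairs of stages), so the numbers were not used as a pairing. Alternatives were no filter, median-ratio scaling, library size alone, at least 10 counts in every sample, DESeq2 (version 1.42.0), limma (version 3.58.1) on log2(RPKM + 0.1), only the 2 stages compared, a replicate block, an FDR of 0.05, a 2-fold or no fold threshold, and each sample left out in turn. The scalings of the step shares and of the other lists were chosen after seeing the data. R (version 4.3.3) and Python (version 3.11.15) were used. Intervals and floors (3 reads) cover counting error only.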

Additional observations from a re-analysis of the deposited data

How the results depend on the processing

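No alternative turned the direction of a call or called any of the 39 genes higher. The counts of calls did change: limma on log2(RPKM + 0.1) called 23 genes lower from P14 to P28 and 22 from P28 to adult. The main fit called 28 and 29 there. From E18 to adult and from E18 to P14 limma called 39 and 38, against 38 and 36. With 1 sample left out, 38 genes were called lower from E18 to adult and 36 from E18 to P14 in every case, 23 to 31 from P14 to P28 and 28 to 31 from P28 to adult. The test of the first against the second step called 15 (without the first P14 sample) to 29 genes, and 37 with library size alone or limma, and that of the second against the third 11 (without the first P28 sample) to 21. limma called 6 in the latter, and the cause was not tested. With the replicate number as a block, 38, 36, 28 and 29 genes were called in the 4 comparisons and 26 and 21 in the tests of the steps. Library size alone called 39 and 38 genes from E18 to adult and to P14, adding Nek2 and Bub3, and made 78.8% of all calls from E18 to adult lower ones, in place of 58.7% with TMM. limma, also unscaled by TMM, called 11 and 13 of the 22 anaphase-promoting complex and cohesin genes lower from E18 to adult and to P14. In the main fit these counts were 5 and 3. Of all genes tested limma called 28.2 and 22.0% lower in these comparisons. A minimum of 10 counts in every sample left out the members with few adult reads and called 29, 27, 20 and 20. Without a fold threshold 39 genes passed in each comparison but P28 to adult, where 38 did. Depth limits the adult levels of the 28 genes under 100 reads.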
